A study of Populus ussuriensis with 18 samples.

Results

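The 101 transcripts described here were lowered in the roots of Populus ussuriensis after 48 and 120 h in PEG but not after 6 h. They were chosen among 12994 transcripts by 3 limits on d, the mean log2(FPKM + 1) of a time minus that of 0 h. The limits were d of -0.8 or less at 120 h, of -0.5 or less at 48 h and above -0.3 at 6 h, and a member was also at least 400 bp long and had at least 1 FPKM in at least 3 libraries. In FPKM, the fragment number of a transcript is scaled to its length and to the size of the library. Of 11404 transcripts that passed the filter and the length, 428 met the limit at 120 h and 329 of these also that at 48 h. The limit at 6 h removed 228 of the 329, since these were already lowered early. Because the values at 6, 48 and 120 h against 0 h chose the members, they are given as a description. No count of calls against 0 h is read as a result.

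The members just inside the limits were f6p60_1747_5543 with d of -0.801 at 120 h, CYP73A100 (f2p60_956_11446) with -0.51 at 48 h and f5p60_646_34050 with -0.299 at 6 h. The transcripts just outside were f2p60_417_37279 with -0.799 at 120 h, f3p60_1575_24633 with -0.49 at 48 h and f3p60_1799_4315 with -0.33 at 6 h.

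The libraries were made from roots of wild-type seedlings, 3 weeks old, sampled at 0 h and after 6, 12, 24, 48 and 120 h in liquid medium with 6% PEG, with 3 biological replicates at each time. PEG (polyethylene glycol) is a polymer used to lower the water that roots can take up. Roots of several seedlings were pooled for each replicate. The 0 h seedlings are the single control, with no seedlings in liquid medium that lacked PEG, so the stay in liquid and the PEG cannot be told apart. The seedlings were grown with 16 h of light and 8 h of dark. The methods of the study state a common harvest time for the roots of all treatments. LHY transcripts of the circadian clock, which are not members, differed between 12 and 24 h. Their d was -2.24 (f2p60_925_30878) and -1.85 (f4p60_3026_19232) at 12 h, and 0.49 and 0.64 at 24 h. The part of the time of day in any comparison was not tested. In bulk RNA of this kind, fewer cells of a type and less RNA per cell cannot be told apart either.

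Roots that lose water first signal osmotic stress through calcium, reactive oxygen species and hormones such as ABA and ethylene, and then change growth, cell walls and metabolism. Class III peroxidases (POD) use hydrogen peroxide in the cell wall, where they can stiffen it or help to form lignin, and glutathione S-transferases (GST) join glutathione to reactive compounds. Alcohol dehydrogenase regenerates NAD+ in fermentation when respiration cannot, and the alternative (ubiquinol) oxidase of plant mitochondria accepts electrons beside the cytochrome path. Ethylene receptors repress the ethylene response until they bind the hormone.

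The sum of FPKM per library was between 1067374 and 1159874, and 865 to 1016 transcripts were listed at 0 in a library. The mean correlation of a library with the others of its time was lowest for replicate 3 of 48 h at 0.961 and highest at 0.979. Replicate 3 of 48 h stood apart among the members: 16 of the 101 were at least 1 log2 unit above the mean of the other 48 h libraries there (15.8%, against 2.43% of all tested transcripts). In the other 17 libraries, 0 to 8 members did so, and the highest of these counts was in replicate 1 of 120 h. The members among the 16 with a name were both alcohol dehydrogenase transcripts, both GSTs and CYP73A100. Without that library the median d at 48 h was -0.998 in place of -0.87. Of 18 transcripts that mark green tissue, none was a member and none was listed at 0. Their summed FPKM had a median of 2794 at 0 h, 1220.1 at 6 h, 1947.8 at 12 h, 2713 at 24 h, 3490 at 48 h and 3916 at 120 h, and the 8 root markers, of nitrate and ammonium transporters and Peroxidase 3 and with no member or 0 value among them, had 1523, 519, 339, 404, 898 and 1518 FPKM at these times. The part of either in the members' course was not tested.

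The summed FPKM of the members was 7092 ± 82.6 at 0 h, 9104 ± 217 at 6 h, 8288 ± 70.4 at 12 h, 5979 ± 268 at 24 h, 4098 ± 1097 at 48 h and 3224 ± 87.6 at 120 h (SD, n = 3 at each time). The members thus made up 0.645% of all FPKM at 0 h, 0.834% at 6 h and 0.285% at 120 h. At 48 h the libraries held 3559, 3375 and 5360.0 FPKM, so the spread at that time came from replicate 3. The median member had d of 0.23 at 6 h, -0.29 at 12 h, -0.46 at 24 h, -0.87 at 48 h and -1.13 at 120 h, while the median of all 12080 transcripts that passed the filter stayed between -0.04 and 0.01. At 120 h against 48 h, 80 members had the lower mean, with a median difference of -0.25, and without replicate 3 of 48 h this was 66 members with a median of -0.14. The lower limit at 120 h than at 48 h favours that direction. The number of members under 1 FPKM was 17 at 120 h and 1 at 0 h.

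**Figure D1:**
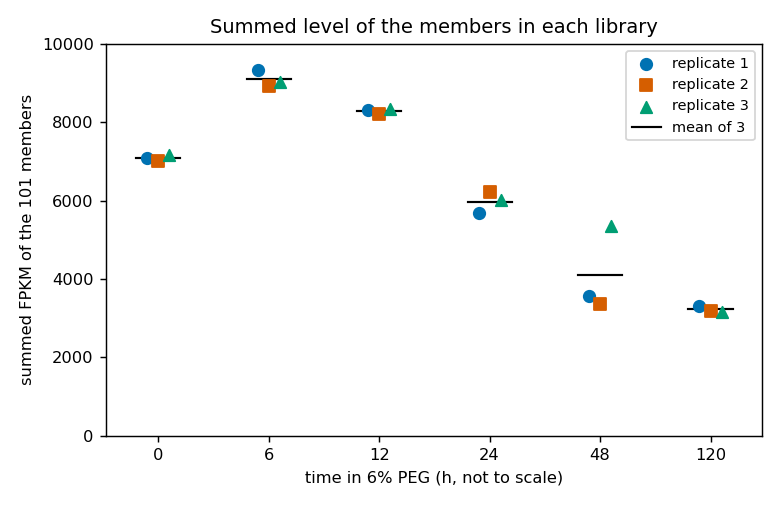
Summed FPKM of the 101 members in each library (vertical axis, from 0) by time in 6% PEG (horizontal axis, not to scale). Points are libraries, with symbols for replicates, and bars are the means of 3. The 3 libraries of 120 h lie near 3224 FPKM, under those of 0 h near 7092, and replicate 3 of 48 h lies apart at 5360.0.

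No limit was set at 12 or 24 h, and the members differed there, though d at these times shares the 0 h libraries with the limits. Members were sorted by the first time at which d was -0.5 or lower. That was 12 h for 32 members, 24 h for 30 and 48 h for the remaining 39, since the limit requires it there. This sort shapes the group medians at 12 and 24 h, so they are a description. The 32 members that were low by 12 h had a median d of 0.02 at 6 h, -0.82 at 12 h and -0.56 at 24 h. The 30 that followed at 24 h had medians of 0.16 at 6 h, -0.13 at 12 h and -0.74 at 24 h. The 39 late members were above the 0 h level early, with medians of 0.50 at 6 h and 0.13 at 12 h, and were near it at 24 h with -0.10. Of the 35 members with d of 0.5 or more at 6 h, 20 were among these 39, 8 reached the low level at 24 h and 7 at 12 h. These 35 had a median of 25.9 FPKM at 0 h, 40.5 FPKM at 6 h and 9.08 FPKM at 120 h.

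**Figure D2:**
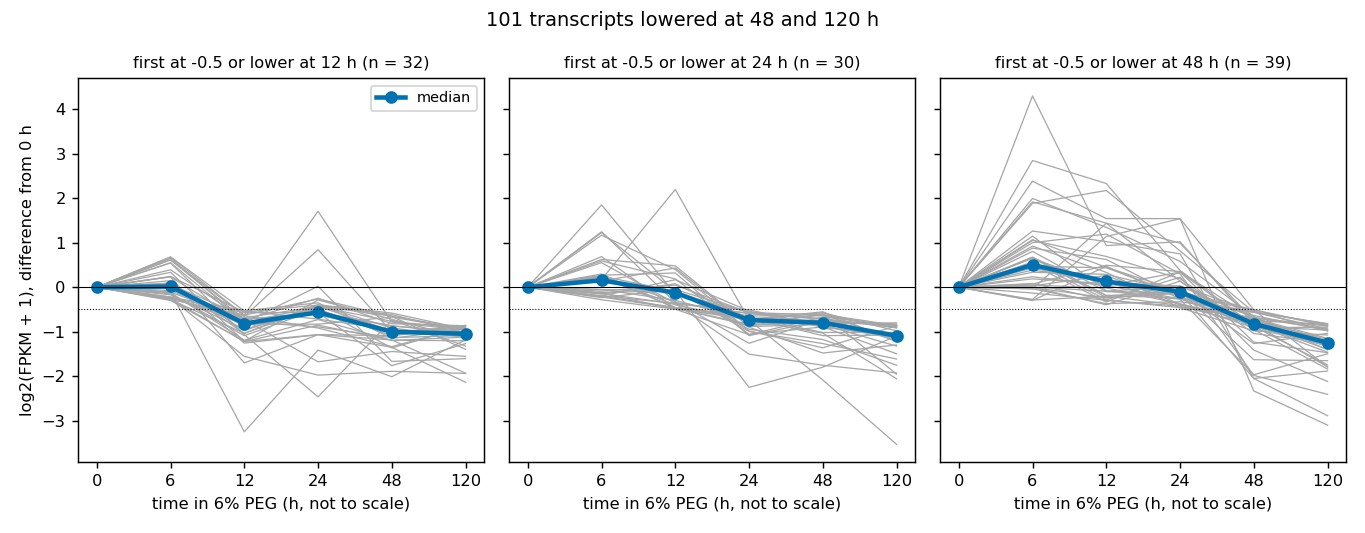
Difference of log2(FPKM + 1) from 0 h (vertical axis) for each of the 101 members (grey lines) by time in 6% PEG (horizontal axis, not to scale), in panels by the first time at -0.5 or lower, with the median in blue. The 32, 30 and 39 members of the panels have different courses up to 24 h, partly by the sort. All are low at 48 and 120 h as the limits require.

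The comparison of 24 h with 12 h uses libraries on which no limit was set, and asks whether the decline was under way between these times. DEGs were transcripts with an absolute log2 difference of at least 1 and a limma p under 0.05 after Benjamini-Hochberg adjustment over all 12080 transcripts. Of the members 11 were down-regulated at 24 h against 12 h (10.9%) and 3 were up-regulated (2.97%), against 1.44% and 2.03% of all tested transcripts, and 3.47% of these were called in either direction. With any fold, 30 members were lower and 12 were higher at an adjusted p under 0.05, against 14.8% and 18.0% of all tested transcripts, and 41.6% of the members passed in either direction, against 32.8%. All 3 libraries of 24 h lay under all 3 of 12 h for 42 members, against 21.9% of all tested transcripts, and above them for 22 members, against 24.4%. The median difference over the members was -0.21 and that over all tested transcripts 0.02, with 65 members below and 36 above 0. Taken for each 24 h library in turn against the mean of 12 h, the median over the members was -0.27, -0.13 and -0.22. The members varied more between replicates than other transcripts, with a median SD of 0.15 against 0.10 log2 units over the 12 and 24 h libraries, and they were shorter, with a median of 1131 bp against 1397 bp. The part of these properties in the counts was not tested.

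**Figure D3:**
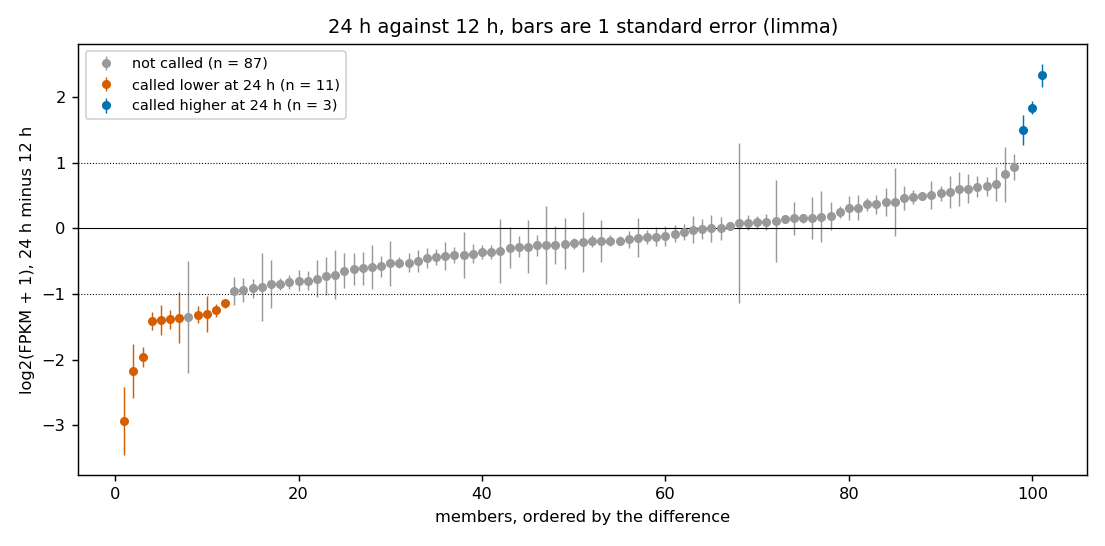
The 24 h minus 12 h difference in log2(FPKM + 1) of each member (vertical axis), with members in order of the difference (horizontal axis). Bars are 1 standard error from limma, and colours mark the 11 members called lower and the 3 called higher at 24 h. All but 1 of the other 87 lie between the dotted lines at -1 and 1.

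Of the 5 PODs among the members, 3 were down-regulated at 24 h against 12 h. Peroxidase 4 (f3p60_1309_26798) had 80.3, 79.3 and 85.0 FPKM at 24 h, against 196, 202 and 214 FPKM at 12 h. Peroxidase 5 (f5p60_1266_8983) had 79.1, 77.3 and 82.3 FPKM at 24 h, against 189, 183 and 198 FPKM at 12 h. Peroxidase 10 (f3p60_1276_8658) had 88.5, 94.5 and 96.0 FPKM at 24 h, against 253, 235 and 258 FPKM at 12 h. For none of the 3 did the libraries of 24 h come near those of 12 h. The log2 differences were -1.31 (SE 0.13, adjusted p = 2.4e-06) for Peroxidase 4, -1.25 (SE 0.10, adjusted p = 3.7e-07) for Peroxidase 5 and -1.41 (SE 0.13, adjusted p = 2e-06) for Peroxidase 10, all by limma.

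Before this step the 3 PODs had been at or above their 0 h level. Peroxidase 4 averaged 151 ± 3.10 FPKM at 0 h, 166 ± 4.30 at 6 h and 204 ± 8.91 at 12 h, and then 84.7 ± 15.7 at 48 h and 60.6 ± 13.3 at 120 h. Peroxidase 5 was highest at 6 h with 252 ± 10.6 FPKM, against 167 ± 4.11 FPKM at 0 h, and had 59.0 ± 9.92 FPKM at 120 h. Peroxidase 10 had 120.4 ± 28.9 FPKM at 48 h, where replicate 3 with 87.0 FPKM was the lowest library, and 86.8 ± 8.58 FPKM at 120 h. Most of the lowering of these 3 transcripts was thus present by 24 h. Transcripts of these names outside the members had other values. Another Peroxidase 4 (f2p59_1311_26810) had d of 4.16 at 6 h and 0.68 at 120 h. Another Peroxidase 5 (f4p60_1269_8729) had d of -0.615 at 6 h and -4.96 at 120 h. The study prints changes of the opposite sign for this Peroxidase 5 at 6 and 120 h. It does so at 120 h for that other Peroxidase 4 as well, and the reason was not tested. For Peroxidase 10, d at 120 h was -0.39 in f2p13_1685_6026, -0.20 in f2p60_1223_9181 and -0.95 in f5p60_1200_9306.

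The other PODs among the members took other courses. A transcript with the description of a peroxidase precursor (f2p60_431_37275) had 41.7, 57.9 and 53.5 FPKM at 24 h, against 45.6, 50.1 and 46.9 FPKM at 12 h, and these libraries overlap. It was at 21.4, 21.6 and 22.9 FPKM at 48 h, under all libraries of the earlier times. Peroxidase 25 (f2p60_1145_28469) was low already at 12 h and had 2.61, 3.81 and 2.67 FPKM at 24 h, against 1.2, 0.82 and 1.31 FPKM at 12 h, a log2 difference of 0.93 (SE 0.20, adjusted p = 0.00217 by limma) that is under the fold limit of a DEG. Of 28 PODs picked by name from the study's tables, 3 were down-regulated and 3 were up-regulated at 24 h against 12 h. Their median difference was -0.05. The 3 down-regulated PODs were members, and none of the 3 up-regulated ones was. The study's tables come from these samples, so the list is not independent of their values.

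**Figure D4:**
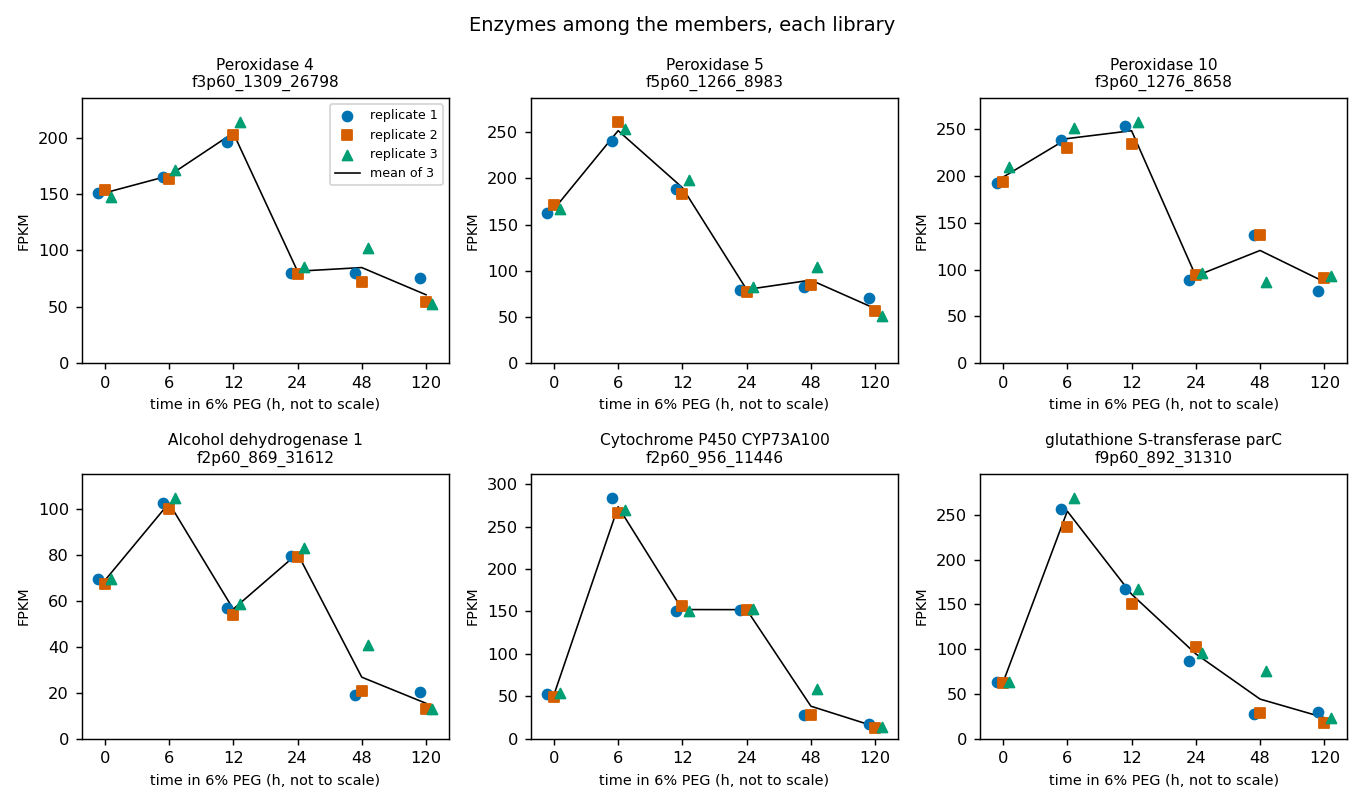
FPKM of 6 enzymes among the members in each library (vertical axes, from 0) by time in 6% PEG (horizontal axes, not to scale), with symbols for replicates and lines through the means of 3. The 3 PODs of the upper row are lower at 24 h than at 12 h, Peroxidase 10 with means of 93.0 and 249 FPKM, and in the lower row replicate 3 of 48 h lies above the other libraries of its time.

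The alcohol dehydrogenase 1 homologous genes match the Populus trichocarpa loci POPTR_0007s03890g and POPTR_0007s03910g, and whether fragments fitted both transcripts was not tested. The transcript f2p60_869_31612 had 69.7, 67.3 and 69.6 FPKM at 0 h, 102.9, 100.1 and 105.0 FPKM at 6 h, 57.0, 53.8 and 58.6 FPKM at 12 h, 79.5, 79.3 and 83.2 FPKM at 24 h, 18.9, 20.7 and 40.8 FPKM at 48 h and 20.3, 13.1 and 12.9 FPKM at 120 h. It was thus high at 6 h, dipped at 12 h and was above the 0 h libraries again at 24 h, before the low values of 48 and 120 h. The second transcript, f2p60_1559_24796, followed the same order, with 34.5, 37.0 and 36.9 FPKM at 24 h, against 22.8, 23.9 and 20.1 FPKM at 12 h. The libraries of 24 h and 12 h did not overlap for either, but the differences of 0.51 (SE 0.21, adjusted p = 0.0829) and 0.68 (SE 0.26, adjusted p = 0.0651) did not pass the limma test. Each SE pools the spread of all 6 times. The SD of f2p60_869_31612 was 12.1 FPKM at 48 h, 2.46 at 12 h and 2.21 at 24 h. For f2p60_1559_24796 it was 7.84, 1.96 and 1.42 FPKM at these times. Replicate 3 of 48 h had 21.7 FPKM of f2p60_1559_24796, against 9.10 and 7.37 FPKM in the other libraries of 48 h.

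Ubiquinol oxidase 1a (f2p60_1635_24292), the alternative oxidase of mitochondria, was low already at 12 h. It had 14.4, 13.1 and 16.6 FPKM at 24 h, against 12.1, 7.22 and 9.07 FPKM at 12 h, with a log2 difference of 0.61 (SE 0.22, adjusted p = 0.0453 by limma), and 20.3 ± 3.59 FPKM at 0 h. At 48 and 120 h it averaged 9.83 ± 2.11 and 9.83 ± 2.83 FPKM. The libraries of 24 h lay above those of 12 h and under those of 0 h. A low-oxygen list of 9 transcripts, picked by name from the study's tables, held these 3 members. None of the 9 was up-regulated at 24 h against 12 h, and the median difference was 0.44. The 1 down-regulated was Alcohol dehydrogenase class-3 (f7p60_1504_25170), not a member, which its name alone put on the list.

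CYP73A100 is a homologue of cinnamate 4-hydroxylase, an early enzyme of the phenylpropanoid pathway that leads to lignin. The study lists another homologue of this enzyme among its DEGs, which was not a member. The transcript described here thus does not stand for the enzyme as a whole. The transcript f2p60_956_11446 had 284, 266 and 269.9 FPKM at 6 h, against 52.4, 48.9 and 53.5 FPKM at 0 h, a ratio of means of 5.30. It then held one level, with 152, 152 and 153 FPKM at 24 h, against 150.1, 156 and 150.3 FPKM at 12 h, and the libraries of these times overlap. At 48 h the libraries had 28.4, 27.7 and 58.7 FPKM, of which the third lies above the 0 h libraries, and at 120 h 17.1, 12.2 and 13.5 FPKM. The mean at 120 h was 27.7% of the 0 h mean.

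The GST homologous genes among the members differed in their early course. The parC homologue (f9p60_892_31310) had 257, 237 and 269 FPKM at 6 h, against 63.5, 62.4 and 62.8 FPKM at 0 h. It had 86.5, 101.9 and 95.9 FPKM at 24 h, against 167, 150.5 and 167 FPKM at 12 h, a log2 difference of -0.76 (SE 0.28, adjusted p = 0.0475 by limma) with no overlap of the libraries. It fell short of the fold limit of a DEG, and by 120 h it had 29.3, 17.8 and 23.4 FPKM. GST 23 (f4p60_919_11774) averaged 58.1 ± 4.62 FPKM at 24 h and 76.9 ± 3.87 FPKM at 12 h, a difference of -0.40 (SE 0.35, adjusted p = 0.412 by limma). At 48 h its libraries had 22.1, 21.8 and 75.9 FPKM, and the last of these lies above all 0 h libraries, so its low mean at 48 h rests on the first and second. Of 18 GSTs picked by name from the study's tables, 1 was up-regulated and 2 were down-regulated at 24 h against 12 h. The 2 were not members. Of other non-members named parC, d at 120 h was -0.675 in f2p42_916_30963 and -0.075 in f2p60_993_30050. Of those named GST 23, it was -1.272 in f2p60_822_12727 and -1.666 in f2p60_903_31165.

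Enzymes of other kinds were lowered with them. AAA-ATPase ASD (f2p60_1749_5714), named after a mitochondrial ATPase of Arabidopsis that is known from seed development, had 25.3, 25.5 and 30.2 FPKM at 24 h, against 60.1, 59.3 and 62.2 FPKM at 12 h. The difference of -1.14 (SE 0.07, adjusted p = 1.8e-08 by limma) made it a DEG, and it had been at 115 ± 4.55 FPKM at 6 h. From 24 h on it was nearly level, with 22.5 ± 0.920 FPKM at 48 h and 19.8 ± 1.36 FPKM at 120 h. Of 4 transcripts of that name it alone was a DEG at 24 h against 12 h. The others had d at 120 h of 0.57 (f3p60_1719_23683), -0.52 (f4p60_1905_22440) and -0.78 (f9p60_1872_4860). The aspartyl protease homologue (f5p60_1714_5850) had 3.25, 2.89 and 3.76 FPKM at 24 h, against 8.20, 6.95 and 6.22 FPKM at 12 h, a difference of -0.92 (SE 0.14, adjusted p = 0.00016 by limma) just under the fold limit. UDP-glucuronate 4-epimerase 6 (f2p60_1983_4353), which makes a sugar nucleotide for pectin, was highest at 6 h with 70.8 ± 1.68 FPKM, against 44.5 ± 3.69 FPKM at 0 h. It did not pass the test between 24 and 12 h, with 40.2 ± 1.33 FPKM at 24 h and 37.7 ± 1.88 FPKM at 12 h (difference 0.09, SE 0.10, adjusted p = 0.505 by limma), and had 19.3 ± 3.64 FPKM at 120 h.

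Calcium-binding protein PBP1 (f2p60_721_33528), which binds the PINOID kinase in Arabidopsis, had 36.9 ± 3.69 FPKM at 6 h and 23.02 ± 0.726 FPKM at 0 h. At 120 h its libraries had 13.5, 3.9 and 4.16 FPKM, so that replicate 1 lies apart, though under the 0 h libraries. It was 1 of 13 calcium signaling transcripts picked by name from the study's tables. None of the 13 was called at 24 h against 12 h. A transcript whose Swiss-Prot entry is Mucin-1, a human protein, so that the name says little of its role in a plant (f2p60_2186_21304), had 273, 324 and 260.3 FPKM at 6 h, against 73.7, 75.2 and 74.3 FPKM at 0 h. It had 193, 148 and 116 FPKM at 24 h, against 229.7, 193 and 190.4 FPKM at 12 h, with a difference of -0.45 (SE 0.16, adjusted p = 0.0383 by limma), and 29.9, 24.4 and 34.5 FPKM at 120 h.

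Among the 41 members with an annotation, 7 were transcription factors (TFs), which is 17.1%, against 114 of 933 other annotated transcripts (12.2%). They came from the BHLH family, with 2 members, and from AP2/ERF, C2C2, GRAS, MYB and WRKY with 1 each. None of the 7 was a DEG at 24 h against 12 h, where 16 of the 121 TFs on the list were up-regulated and 2 were down-regulated. The TF list comes from the study's tables of these samples.

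WRKY40 and ERF2 were above their 0 h level at 6 h, and so was bHLH130, which was low from 12 h on. WRKY40 (f2p60_1831_5110), whose Arabidopsis homologue acts in defense and ABA signaling, had 27.9, 27.8 and 28.5 FPKM at 6 h, against 6.84, 7.60 and 6.73 FPKM at 0 h. It had 4.43, 4.29 and 4.62 FPKM at 24 h, against 6.22, 6.04 and 6.44 FPKM at 12 h, a log2 difference of -0.41 (SE 0.12, adjusted p = 0.02 by limma), and ended at 3.93, 3.11 and 3.03 FPKM at 120 h. The high level of 6 h was over by 12 h, when all libraries were already under those of 0 h. Other transcripts named WRKY40 were not members. Their d at 12 and 120 h was 1.93 and 0.07 in f3p60_1311_8503, 0.84 and -0.595 in f2p35_1482_25329 and -0.86 and -0.51 in f2p53_770_33148. ERF2 (f3p60_1106_28890), an ethylene-responsive factor, had 38.04, 41.2 and 39.5 FPKM at 24 h, against 57.3, 55.1 and 59.3 FPKM at 12 h, a difference of -0.52 (SE 0.08, adjusted p = 0.0002 by limma). Its means were 52.3 ± 4.45 FPKM at 0 h, 68.6 ± 1.07 at 6 h, 30.2 ± 0.477 at 48 h and 20.3 ± 3.00 at 120 h, so the decline went on from 12 h to 120 h.

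Of the TFs besides WRKY40 and ERF2, 4 were low from 12 h on and the GRAS factor from 24 h on. Of these bHLH130 was first higher, with 14.7, 16.4 and 17.9 FPKM at 6 h. bHLH130 (f2p47_1948_22288) had 6.89, 5.74 and 7.23 FPKM at 24 h, against 4.56, 5.16 and 4.94 FPKM at 12 h, with a log2 difference of 0.37 (SE 0.10, adjusted p = 0.0111 by limma), and 4.93, 4.94 and 5.01 FPKM at 120 h, against 13.1, 11.3 and 13.9 FPKM at 0 h. bHLH93 (f2p60_1358_26343) was more abundant, with 31.3 ± 2.64 FPKM at 120 h and 67.8 ± 4.42 FPKM at 0 h, and 43.8 ± 2.54 FPKM at 24 h, against 40.7 ± 1.17 FPKM at 12 h. MYB86 (f2p60_1329_26646) was weakly expressed, with 1.08 ± 0.505 FPKM at 12 h, 1.54 ± 0.245 FPKM at 24 h and 0.823 ± 0.167 FPKM at 120 h, against 2.74 ± 0.270 FPKM at 0 h. CONSTANS-LIKE 3 (f2p60_1604_24470), a zinc finger protein, was weaker still, with 0.333 ± 0.147 FPKM at 12 h, 0.833 ± 0.146 FPKM at 24 h and 0.397 ± 0.141 FPKM at 120 h, against 2.04 ± 0.260 FPKM at 0 h. Most of the lowering of both was present at 12 h, and between 24 and 12 h neither MYB86 (adjusted p = 0.242) nor CONSTANS-LIKE 3 (adjusted p = 0.0712) passed the limma test. The GRAS factor, a homologue of the rice protein CIGR1 (f2p60_2444_20532), declined in small steps, with means of 19.5 FPKM at 0 h, 15.9 at 6 h, 13.6 at 12 h, 11.7 at 24 h, 8.62 at 48 h and 8.75 at 120 h.

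**Figure D5:**
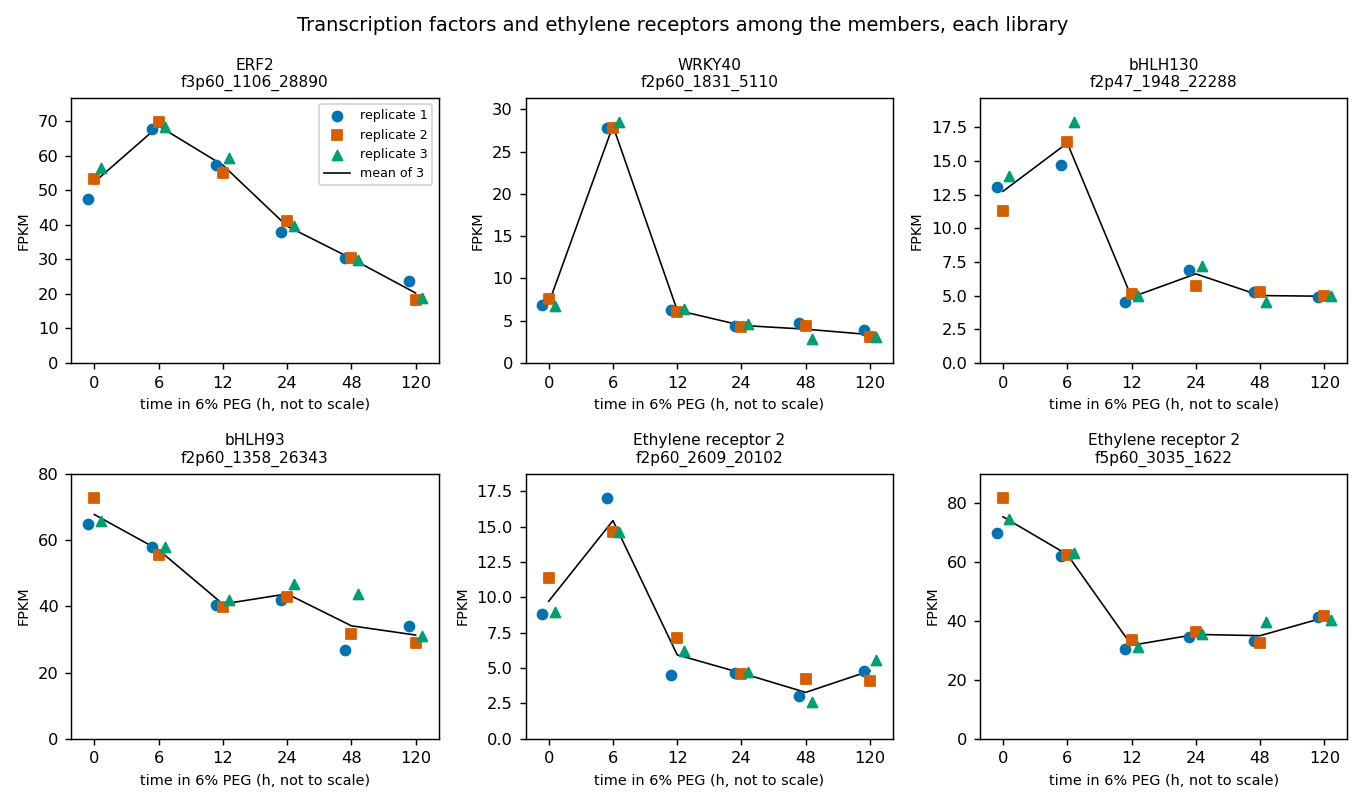
FPKM of 4 TFs and the ethylene receptors among the members in each library (vertical axes, from 0) by time in 6% PEG (horizontal axes, not to scale), with symbols for replicates and lines through the means of 3. The WRKY40 transcript f2p60_1831_5110 has its high libraries, near 28.0 FPKM, at 6 h only. bHLH130 and the receptors are under their 0 h libraries from 12 h on, and the longer receptor transcript f5p60_3035_1622 already at 6 h.

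Both transcripts of Ethylene receptor 2 in the annotation at hand were members, a list made after their values were seen. The longer one (f5p60_3035_1622) had 69.7, 81.8 and 74.5 FPKM at 0 h, 61.9, 62.5 and 63.1 FPKM at 6 h, 30.5, 33.4 and 31.2 FPKM at 12 h, 34.5, 36.3 and 35.5 FPKM at 24 h, 33.01, 32.4 and 39.5 FPKM at 48 h and 41.3, 41.7 and 40.4 FPKM at 120 h. It thus reached its low level by 12 h, and its 120 h libraries lay above those of the 3 times before. The shorter one (f2p60_2609_20102) was first higher, with 17.1, 14.6 and 14.6 FPKM at 6 h, against 8.82, 11.4 and 8.96 FPKM at 0 h, and had 4.77, 4.05 and 5.58 FPKM at 120 h. Between 24 and 12 h neither passed the test, with log2 differences of 0.16 (SE 0.07, adjusted p = 0.105) and -0.28 (SE 0.16, adjusted p = 0.204) by limma.

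The members without a Swiss-Prot name were 77, of which 60 had no annotation at hand, and no role is given for them. The largest difference between 24 and 12 h was that of f2p39_1337_26587, which had 20.8, 18.0 and 19.7 FPKM at 24 h, against 174, 132 and 163 FPKM at 12 h (log2 difference -2.94, SE 0.52, adjusted p = 0.00064 by limma). It had averaged 37.6 ± 2.84 FPKM at 6 h and 33.1 ± 1.18 FPKM at 0 h, so 12 h was a single high time. Its late level rests on few libraries, with 24.4, 23.2 and 6.55 FPKM at 48 h and 22.4, 3.48 and 4.23 FPKM at 120 h. The transcript f2p60_1026_29785 had 4.72, 5.04 and 5.10 FPKM at 24 h, against 20.7, 23.3 and 22.3 FPKM at 12 h (difference -1.95, SE 0.15, adjusted p = 3e-07 by limma). Its mean at 6 h, 32.02 ± 1.45 FPKM, was 8.84 times that of 0 h, 3.62 ± 0.755 FPKM, and at 120 h it had 0.847 ± 0.333 FPKM.

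Of the other down-regulated members without a name, f2p60_990_11260 had 5.43, 4.70 and 5.68 FPKM at 24 h, against 13.8, 18.5 and 14.6 FPKM at 12 h (difference -1.40, SE 0.23, adjusted p = 0.00029 by limma). It was higher again afterwards, at 20.3 ± 6.23 FPKM at 48 h and 13.5 ± 5.49 FPKM at 120 h, so 24 h was its lowest time. The 3 remaining ones, f2p60_1345_8093, f3p52_486_36636 and f4p60_1229_9251, fall outside the rule for named transcripts and were picked with their values known, to complete the 11. Of these f4p60_1229_9251 was the most abundant, with 342, 314 and 251 FPKM at 24 h, against 757, 768 and 698 FPKM at 12 h (difference -1.30, SE 0.27, adjusted p = 0.00227 by limma). The other two differed by -1.39 (SE 0.15, adjusted p = 5.8e-06) for f2p60_1345_8093 and by -1.36 (SE 0.39, adjusted p = 0.015) for f3p52_486_36636.

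The 3 members that were up-regulated at 24 h against 12 h had a low 12 h level. The transcript f2p60_1012_10921 had 39.0, 37.3 and 38.2 FPKM at 24 h, against 9.64, 10.1 and 10.1 FPKM at 12 h (difference 1.84, SE 0.11, adjusted p = 1.3e-08 by limma), and 103 ± 3.44 FPKM at 0 h. Its d of -3.25 at 12 h was the lowest of all members at that time, and from 24 h on it lay between 23.3 and 52.6 FPKM. The transcript f2p32_1796_23177 had 8.85, 7.81 and 9.91 FPKM at 24 h, against 0.90, 0.80 and 1.17 FPKM at 12 h (difference 2.33, SE 0.18, adjusted p = 2.6e-07 by limma). Its 24 h libraries were also above those of 0 h, with 2.01 ± 0.217 FPKM, and at 120 h it had 0.537 ± 0.101 FPKM. In f10p60_1412_25616, 24 h was likewise a single high time, with 25.9, 25.0 and 25.3 FPKM at 24 h, against 8.60, 7.33 and 9.17 FPKM at 12 h (difference 1.499, SE 0.22, adjusted p = 0.00014 by limma).

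Groups of members matched one Populus trichocarpa locus. The 3 transcripts of POPTR_0009s11500g, a hypothetical protein, are f3p60_449_16258, f6p60_617_34989 and f8p60_610_35298. The first had the lowest d of all members at 120 h, -3.53, with 4.19, 0.02 and 2.49 FPKM at 120 h, against 34.8, 24.0 and 30.99 FPKM at 0 h. The second had 12.2, 7.09 and 3.94 FPKM at 120 h, against 29.9, 26.1 and 30.6 FPKM at 0 h, but had been at 70.8 ± 7.70 FPKM at 6 h. The third was weak, with 3.86 ± 0.699 FPKM at 0 h. All 3 were low at 48 h, where f3p60_449_16258 had 6.86 ± 4.18 FPKM and f6p60_617_34989 7.68 ± 6.78 FPKM, and replicate 3 was the highest library for both.

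The transcripts of POPTR_0012s12140g parted between 12 and 24 h. The transcript f7p60_452_36952 had 0.36, 1.01 and 0.73 FPKM at 24 h, against 5, 8.94 and 6.27 FPKM at 12 h (difference -2.17, SE 0.41, adjusted p = 0.00092 by limma). Its partner f5p60_456_16103 had 44.9, 40.9 and 43.8 FPKM at 24 h, against 52.01, 42.4 and 48.1 FPKM at 12 h, which overlap (difference -0.13, SE 0.11, adjusted p = 0.412 by limma). A test of the difference between these transcripts was not run, nor was it tested whether they share fragments.

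The other members with the lowest values late were f2p60_618_14804, f3p60_2194_21258, f2p60_640_34676 and f2p60_841_31883. The transcript f2p60_618_14804 was above its 0 h level at 12 and 24 h, with 13.2 ± 1.56 FPKM at 0 h, 30.2 ± 2.52 FPKM at 12 h and 40.3 ± 4.89 FPKM at 24 h. At 48 h it had 0.40, 0.62 and 8.68 FPKM, and at 120 h 0.20, 1.37 and 0.56 FPKM, which lie under all its libraries of 0 to 24 h. The transcript f3p60_2194_21258 had 0.68, 0.32 and 0.21 FPKM at 120 h, against 8.07, 9.41 and 10.6 FPKM at 0 h, and had 8.54 ± 1.40 FPKM as late as 24 h. The transcript f2p60_640_34676 had 4.25, 6.98 and 40.2 FPKM at 48 h, and 11.1, 5.95 and 7.48 FPKM at 120 h, against 55.3, 43.2 and 41.9 FPKM at 0 h, so that replicate 3 of 48 h was near the 0 h libraries. The transcript f2p60_841_31883 was low from 12 h on, with 7.30 ± 0.932 FPKM then and 3.57 ± 0.985 FPKM at 120 h, against 18.9 ± 2.95 FPKM at 0 h.

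The 5 members with the highest FPKM at 0 h had d between -1.21 and -0.88 at 120 h. The transcript f2p40_1165_9771 had 393, 524 and 482 FPKM at 120 h, against 911, 828 and 853 FPKM at 0 h, and the mean was 53.9% of the 0 h mean. The transcript f2p60_536_36098 had 358, 379.6 and 373 FPKM at 120 h, against 666, 662 and 714 FPKM at 0 h. In both, the late libraries lay well under those of 0 h. The transcript f5p60_944_30516 had 266, 236 and 657 FPKM at 48 h, against 537 ± 9.44 FPKM at 0 h. The transcript f2p60_907_11994 had 218, 203 and 534 FPKM at 48 h, against 468 ± 8.77 FPKM at 0 h. In both, replicate 3 of 48 h lay above the 0 h level and the other libraries of 48 h well under it, while the means at 120 h were 274 ± 36.0 FPKM for f5p60_944_30516 and 210.1 ± 69.5 FPKM for f2p60_907_11994. The transcript f2p60_874_31525 averaged 130 ± 28.7 FPKM at 120 h and 273 ± 25.9 FPKM at 0 h.

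A single transcript, f2p60_800_32515, had the highest d at 6 h, 4.30, with 138, 53.2 and 51.5 FPKM at 6 h, against 6.19, 2.34 and 1.14 FPKM at 0 h. It was listed at 0 in 1 library of 12 h, 1 of 24 h and 1 of 48 h and in all but 1 library of 120 h, so its difference of 0.09 between 24 and 12 h carries an SE of 1.21. The transcript f2p30_547_35932 was similarly scarce, with 4.42, 3.04 and 3.76 FPKM at 24 h, against 0.76, 2.47 and 2.1 FPKM at 12 h (difference 0.82, SE 0.42, adjusted p = 0.151 by limma).

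The 55 members that the rule for named transcripts does not take had d between -0.30 and 1.89 at 6 h, between -1.70 and 2.18 at 12 h, between -1.98 and 0.82 at 24 h, between -1.89 and -0.51 at 48 h and between -1.96 and -0.80 at 120 h. Their mean FPKM at 0 h was between 0.873 and 273, with a median of 25.9. Between 24 and 12 h their differences were between -1.39 and 0.64, and 52 were not DEGs.

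Against 0 h, with the same DEG limits and 0 h libraries shared by all the comparisons, 14 members were called higher at 6 h (7.0% of all tested transcripts were) and 0 lower (5.34%). At 12 h, 12 members were called lower (3.59% of all tested transcripts) and 8 higher (5.73%), and at 24 h 13 were called lower (1.81%) and 3 higher (4.43%). At 48 h 35 were called lower (1.85%) and at 120 h 62 (2.14%), and since the limits at 6, 48 and 120 h shape the counts at those times, nothing is read from them. Nothing is read from the following counts either, as all use the 0 h libraries that chose the members. All 3 libraries of 120 h lay under all 3 of 0 h for 95 members (26.7% of all tested transcripts), and those of 48 h for 84 members (23.8%). With any fold, an adjusted p under 0.05 was reached by 34 members higher at 6 h (30.0% of all tested transcripts), 41 lower at 12 h (29.0%), 46 lower at 24 h (19.9%), 5 higher at 24 h (21.5%) and 84 lower at 48 h (14.7%).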

How the data were processed

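Clean reads were aligned by the authors with the full-length PacBio transcripts and quantified, and the submitters' processing notes name RSEM 1.2.31 and HTSeq 0.6.0. The deposited values are FPKM for 12994 transcripts in 18 libraries. Fragment counts were not used here, so the depth of each library is unknown and the replicate SD stands for precision. The columns carry codes without times and were read as 0 h for the control and as 6, 12, 24, 48 and 120 h in numbered order, the replicate being the last digit, and 0 columns were left unused. No 2 libraries were identical (0 identical pairs). Replicates are pools of seedlings, so p-values measure the spread between these pools.

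FPKM were transformed to log2 after adding 1, which understates the fold of low transcripts. The model was fitted with limma 3.58.1 (R 4.3.3) to the 12080 transcripts that reached 1 FPKM in 3 or more libraries, with a term for the 6 times, an intensity trend and robust moderation. All p-values are Benjamini-Hochberg adjusted over these transcripts, and fitting was tested on simulated data. Python 3.11.15 with pandas 2.3.3 and numpy 2.4.6 served for the rest. Alternatives were other pseudocounts, scalings, filters, limits and libraries left out.

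The members, the gene lists and the tests were chosen with earlier results of these data known. Names were taken from annotation of 1013 transcripts, 668 of them with a Swiss-Prot name, which is drawn largely from tables of DEGs. Some names are shared with transcripts that are not members, and a name here stands only for the ID given. The rule for named transcripts took all 24 members with such a name, the 5 members lowest at 120 h, lowest at 48 h, highest at 6 h, highest and lowest in the 24 h minus 12 h difference and highest in FPKM at 0 h, and those that share a locus, 46 in all. The peroxidase precursor f2p60_431_37275 falls outside it and was named after its values were seen. Sequences and genome coordinates were not used here.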

Additional observations from a re-analysis of the deposited data

How the results depend on the processing

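With each of the 3 limits moved by 0.1 inward, 58 transcripts met the rule, and 161 with each moved outward. Leaving out 1 library gave 95 to 107 members, of which 86 to 101 were among the 101. At any fold, 12 members were higher and 30 lower at 24 h than at 12 h, as were 2170 and 1790 of all tested transcripts, and against 0 h 34 were higher at 6 h (30.0% of all tested transcripts), 41 lower at 12 h (29.0%), 46 lower (19.9%) and 5 higher (21.5%) at 24 h and 84 lower at 48 h (14.7%). A pseudocount of 0.1 gave 5 members higher at 24 h than at 12 h. With 1 library left out, 3 to 4 members were called higher and 11 to 12 lower at 24 h than at 12 h, 231 to 263 and 155 to 183 of all tested transcripts, and the members' median was -0.27 to -0.17. Against 0 h the counts were then 13 to 15 higher at 6 h, 11 to 13 lower and 7 to 10 higher at 12 h, 11 to 15 lower and 2 to 3 higher at 24 h, 31 to 48 lower at 48 h and 57 to 65 lower at 120 h. As before, nothing is read from the counts against 0 h.

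Of the 46 named members, the ones for which this was run, 4 that were not DEGs turned the sign of their 24 h minus 12 h difference, and the cause was not tested. With 1 library left out it was -1.33 to 1.54 for f2p60_800_32515, -0.011 to 0.018 for CYP73A100 (f2p60_956_11446), -0.116 to 0.097 for f3p60_2194_21258 and -0.532 to 0.058 for f8p60_610_35298, and it was 0.002 for CYP73A100 without replicate 3 of 48 h and replicate 1 of 24 h, an alternative chosen after seeing the data. Deviations of same-numbered libraries of 12 and 24 h had correlations of -0.034 to 0.05. These are 3 pairs, too few to exclude that the numbers pair the samples. With the replicate number as a block, 11 members were lower and 3 higher at 24 h than at 12 h, as without it, and 243 of all tested transcripts were higher. A median SD between replicates of 0.15 log2 units over 12 and 24 h limits what could be called.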
